A study of Mus musculus with 6 samples.

Results

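The 35 genes described here encode PPAR-alpha, the enzymes and carriers of fatty acid oxidation, and further genes that PPAR-alpha is known to control in liver. They were chosen by symbol, and all 35 were found in the deposited table of 21956 genes. All 35 passed the filter on low counts, which left 13197 genes for testing. Livers of 3 mice with Sting deleted in endothelial cells (Stingfl/fl Cdh5-Cre+, here the knockout) were compared with livers of 3 Cre-negative littermates (Stingfl/fl Cdh5-Cre-, here the control). All 6 mice carried the floxed alleles, ate chow until the age of 8 weeks and were then given CDAHFD, a high-fat diet without choline and with defined amino acids that induces steatohepatitis, for 10 weeks. The Cdh5 promoter is active in endothelial cells. Cre was present in the knockout mice only, so the effects of Cre and of the loss of Sting cannot be told apart. PolyA RNA came from whole liver, although the labels also name sinusoidal endothelial cells, and the sex of the mice is not given in them.

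PPAR-alpha is a nuclear receptor that binds fatty acids and, with a retinoid X receptor as partner, activates genes of lipid breakdown in hepatocytes. Fatty acids are activated to acyl-CoA, carried into mitochondria as carnitine esters and shortened in a repeated cycle of dehydrogenation, hydration, a further dehydrogenation and thiolytic cleavage. Very long and branched chains are first shortened in peroxisomes by a parallel set of enzymes. In the liver much of the acetyl-CoA made in this way goes into ketone bodies, which other organs burn. Because these enzymes sit in hepatocytes, a change in the share of hepatocytes and a change in RNA per hepatocyte cannot be told apart in whole liver.

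Library totals ran from 16704663 to 21025466 estimated counts. Control 2 stood apart: its mean correlation with the other libraries was 0.953, against 0.966 to 0.974 for the other 5, and its TMM scaling factor was 1.26, against 0.922 to 1.01. Sting1, the targeted gene, had 5.64, 6.54 and 4.40 CPM (counts scaled to library size) in the knockout livers and 12.1, 17.4 and 11.0 in the controls, 40.9% of the control level (log2 fold change -1.29 ± 0.23 SE; edgeR adjusted p = 0.357; two-sided exact permutation p = 0.1, the smallest that 3 against 3 allows). Summed CPM of 9 hepatocyte markers, out of 10 listed and none at 0, ran from 138315 to 159623 in the knockout livers and from 78637 to 133340 in the controls. Sinusoidal endothelial markers, 8 of 8 detected, summed to 494 to 524 CPM in the knockout livers and 398 to 461 in the controls. Alb, the hepatocyte albumin gene, took 9.60% to 10.9% of counts in the knockout livers and 6.91% to 9.61% in the controls.

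No single member was called different between the genotypes, and no test of the members as a group was run. By edgeR's quasi-likelihood test with Benjamini-Hochberg adjustment over all genes, 0 of the 35 members passed 0.05, and neither did any of the 13197 genes tested (0%). Adjusted p-values of the members ran from 0.494 to 0.995. At an unadjusted p under 0.05 there were also 0 members in either direction, where 3.75% of all genes were higher and 7.00% lower in the knockout. In no member did the 3 knockout livers lie all above or all below the 3 controls, whereas 7.25% of all genes were entirely higher and 9.14% entirely lower. DESeq2 called 119 genes of the whole table and limma-voom 0, and neither called a member.

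Most of the fitted differences were small. The log2 fold change (knockout minus control) was above 0 for 27 of the 35 members on TMM scaling, but for 12 on total counts, 9 on log2(TPM + 1) and 1 on hepatocyte marker counts, scalings that moved all genes together. Its median over the members was 0.15 on TMM scaling, where 51.2% of all genes tested were above 0 with a median of 0.0083. It ran from -1.07 for Acot2 to 0.45 for Acaa1a. The 95% interval lay within a 2-fold change either way for 27 members. It reached beyond 2-fold for Acsl1, Crat, Eci2, Ehhadh, Acaa1a, Acot1, Acot2 and Fgf21, for which a 2-fold difference was within what these 6 livers allow.

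**Figure D1:**
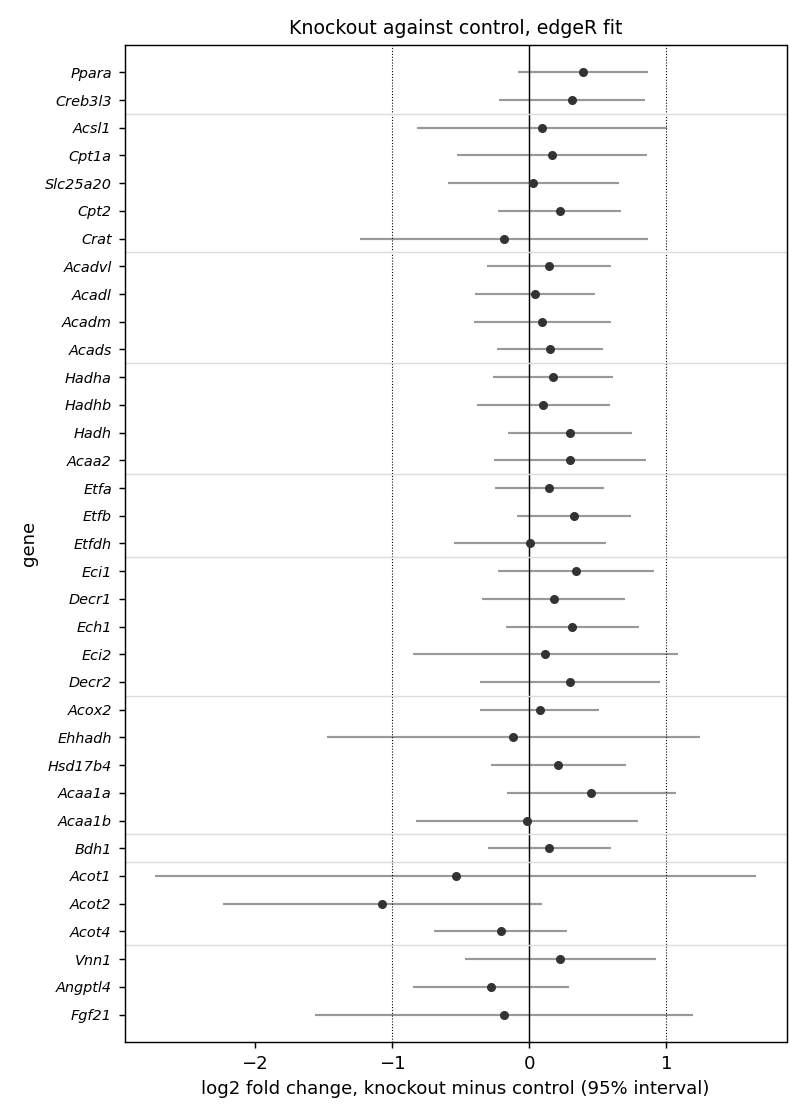
Log2 fold change of each of the 35 members (horizontal axis, knockout minus control; point, edgeR estimate; line, 95% interval), grouped by role from regulators at the top to secreted and membrane target genes at the bottom; dotted lines mark a 2-fold change. Every interval includes 0, and the intervals of Acot1, Ehhadh and Fgf21 are the widest.

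The direction of the group rested on single livers. Without knockout 1 the members' median was -0.043 and 16 of 35 were above 0, and without control 2 it was 0.036 with 22 above 0. Without knockout 2 the median rose to 0.29, with 30 above 0. Without knockout 1, 4 members (Crat, Ehhadh, Acot1 and Acot2) were lower at an unadjusted p under 0.05, against 7.35% of 13409 genes tested in that fit. Without knockout 2, 5 members (Ppara, Creb3l3, Etfb, Eci1 and Acaa1a) were higher, against 3.51% of 13483 genes. None of these passed the adjustment. Knockout 1 was the highest knockout liver for each of those 4 members, and knockout 2 the lowest for each of those 5. Leaving such a liver out moves these estimates in the direction seen, so the counts are descriptions only.

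The larger pattern was a difference between mice of the same genotype. Knockout 1 had the highest CPM of the 3 knockout livers for 28 of 35 members, and knockout 2 the lowest for 30, where 34.0% and 32.4% of all genes did so. On total-count CPM, TPM and counts per hepatocyte marker count, knockout 1 remained the highest of its group for 27 to 31 members and knockout 2 the lowest for 27 to 30. Among the controls, control 1 was highest for 22 and control 2 lowest for 30 on TMM-scaled CPM. The other scales move all genes of control 2 together: it was lowest in its group for 38.3% of all genes on TMM-scaled CPM, 14.7% on total-count CPM, 11.3% on TPM and 4.86% per hepatocyte marker count. The members for which it was lowest numbered 15, 7 and 0 on the last 3 of these scales. The median member differed 1.74-fold between the highest and lowest knockout liver and 1.45-fold between the highest and lowest control. Markers of other cells differed between the same livers, and their part in the members' levels was not tested. No marker on the lists below was at 0 in all 3 livers of a group. Knockout 1 had the highest summed CPM of its group for 6 neutrophil markers (68.4, against 21.7 and 16.3) and 8 cholangiocyte markers (556, against 242 and 306). Control 2 had the highest of its group for 8 cholangiocyte (1254), 8 stellate cell (2234) and 6 proliferation markers (127). Of these control 2 sums, Spp1 alone had 1154 CPM of the cholangiocyte and Col3a1 926 of the stellate cell sum. Col1a1, Lum and Acta2 were also highest of the controls there. Lrat and Reln were lowest (23.5 and 136 CPM), and Dcn and Des lay between the other controls. Between genotypes, the summed CPM of Kupffer cell markers (876 to 1107 in the knockout, 529.8 to 848 in the control), of T and natural killer cell markers (14.0 to 24.0 and 9.32 to 11.2) and of proliferation markers (29.7 to 46.9 and 54.7 to 127) did not overlap. Neither did the hepatocyte and sinusoidal endothelial sums given above, both higher in the knockout. Alb supplied 106552 of the 147313 CPM of the hepatocyte sum in knockout 1. Single markers overlapped for hepatocytes (Apoa1, Apoa2, Ttr, Fgb), sinusoidal endothelium (Stab1, Stab2, Lyve1, Oit3, Bmp2) and Kupffer cells (Clec4f, Vsig4, Timd4, Cd68, C1qa). The other markers of these cells were higher in every knockout liver. Lyve1 and Bmp2 had estimates below 0 (log2 fold change -0.050 and -0.16). Sums of endothelial, cholangiocyte, stellate cell, B and plasma cell and neutrophil markers overlapped. Of single genes, 7.25% were entirely higher and 9.14% entirely lower. The within-group SD of log2 CPM had a median of 0.34 over the members and 0.25 over all genes tested.

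**Figure D2:**
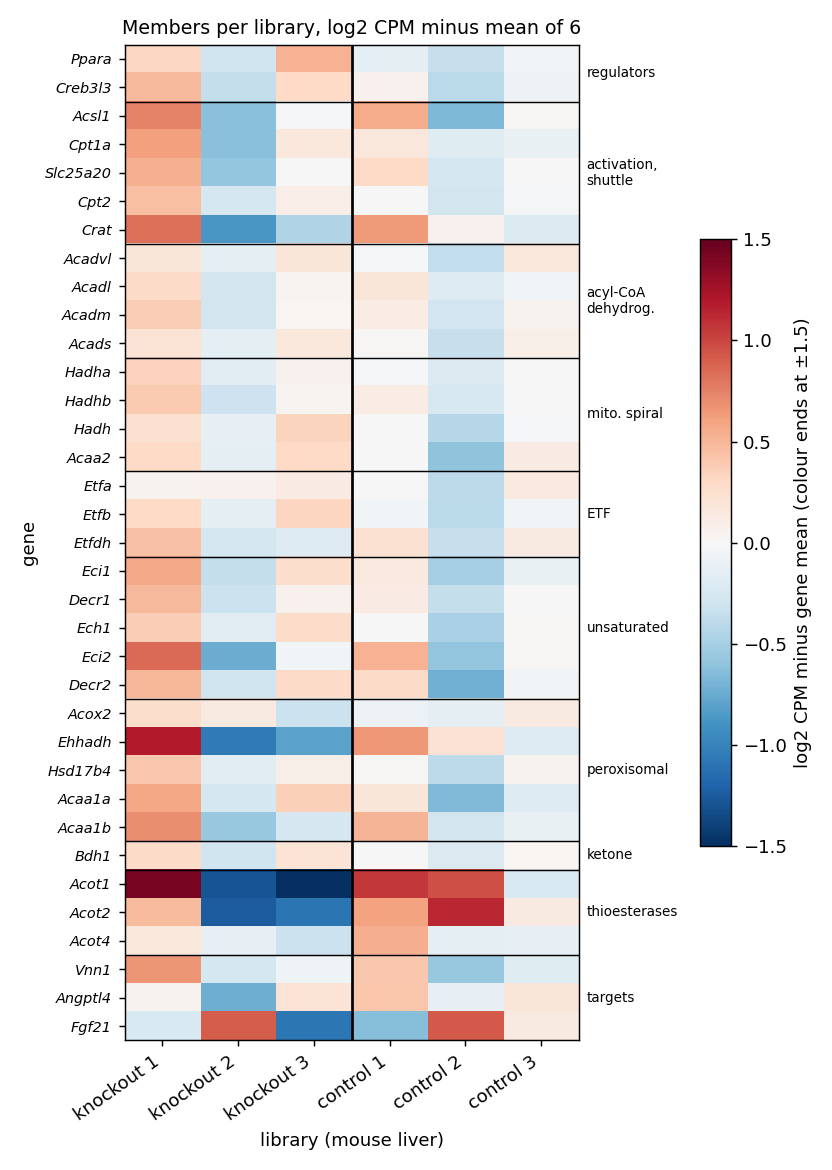
Log2 CPM of each member (rows, ordered by role) in each of the 6 libraries (columns), as the difference from that gene's mean over the 6; red is higher, blue is lower, and colours end at ±1.5. Knockout 1 is red and knockout 2 blue in most rows, while Fgf21 has its highest values in knockout 2 and control 2.

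Of the regulators, Ppara, the gene for PPAR-alpha itself (chr15:85734983-85802819, plus strand, GRCm38), had 99.8, 65.3 and 114.8 CPM in the 3 knockout livers and 72.7, 63.1 and 77.7 in the controls. Knockout 1 and 3 lay above every control and knockout 2 lay among them. The fit gave a log2 fold change of 0.39 ± 0.21 (SE; edgeR adjusted p = 0.530). Creb3l3, a liver factor of the endoplasmic reticulum membrane that acts with PPAR-alpha on Fgf21, had a log2 fold change of 0.31 ± 0.23. Per length, PPAR-alpha mRNA was at 50.1 ± 4.0 TPM in the controls and 55.0 ± 15.6 in the knockout livers (SD, n = 3 each).

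Fatty acids enter mitochondria through an activating and a shuttling step. Cpt1a, the outer-membrane carnitine palmitoyltransferase that sets the rate of entry (chr19:3322334-3385733, plus strand, GRCm38), had 1179, 499 and 861 CPM in the knockout livers and 866, 678 and 712 in the controls. Knockout 1 was the highest and knockout 2 the lowest of the 6, on both sides of the controls. The log2 fold change was 0.17 ± 0.30 (adjusted p = 0.849). Cpt2, its inner-membrane counterpart, had 190.1, 115.9 and 149 CPM in the knockout livers and 138, 115 and 137 in the controls (log2 fold change 0.22 ± 0.20, adjusted p = 0.696), with knockout 2 among the controls and the others above them. Acsl1, which makes acyl-CoA, Slc25a20, the carnitine and acylcarnitine carrier, and Crat, the short-chain carnitine acetyltransferase, had log2 fold changes of 0.093 ± 0.40, 0.031 ± 0.27 and -0.18 ± 0.45. Acsl1 differed 2.58-fold and Crat 3.25-fold between knockout 1 and knockout 2, more than either differed between the group means.

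Cpt1a was 1 of 5 members whose RefSeq promoter (GRCm38.p6, from 250 bases before to 50 bases after the start) held the nuclear receptor half-site AGGTCA on either strand, and the exon-free stretch before the RefSeq start used, which lies inside the gene span annotated in GENCODE, is shown for that site (chr19:3323051-3323284, plus strand). The capitals mark the half-site, here on the minus strand, 94 bases before the start.
Cpt1a: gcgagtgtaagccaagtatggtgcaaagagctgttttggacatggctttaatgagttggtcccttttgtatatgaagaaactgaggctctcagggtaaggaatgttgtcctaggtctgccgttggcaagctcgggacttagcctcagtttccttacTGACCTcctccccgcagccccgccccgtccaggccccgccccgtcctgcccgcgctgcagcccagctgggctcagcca
The other 4 were Creb3l3, Acadvl, Acadm and Acot4. RefSeq promoters were matched for 29 of the 35 members, 33 promoters in all; Crat, Acaa2, Decr1, Hsd17b4, Vnn1 and Angptl4 had no entry. The half-site stood in 15.2% of the members' promoters, in 16.3% of 32851 promoters of the genome and in 13.0% of those of tested genes. The direct repeat that PPAR-alpha binds with its partner, written AGGTCANAGGTCA and made of a pair of these half-sites 1 base apart, was found in 0 of the 33 and in 0.0396% of all promoters. With the fourth base of each half-site free (AGGNCANAGGNCA) it was found in 0 of the 33 and 0.381% of all. These windows are short, and the absence of the letters says nothing of binding elsewhere.

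In the mitochondrial cycle, the acyl-CoA dehydrogenases for very long (Acadvl), long (Acadl), medium (Acadm) and short chains (Acads) take the first step. Their log2 fold changes were 0.14, 0.043, 0.096 and 0.15, with SEs of 0.17 to 0.22. Acads, which had the smallest p among these dehydrogenases, had 161, 127 and 155 CPM in the knockout livers and 141, 109.8 and 149 in the controls (adjusted p = 0.756). The groups overlapped, and Acads was among the members with the least spread within groups (SD 0.21 on the log2 CPM scale). Hadha and Hadhb, the 2 subunits of the trifunctional protein, had log2 fold changes of 0.17 ± 0.19 and 0.10 ± 0.21. Hadh, the dehydrogenase for shorter hydroxyacyl-CoA, had 384, 299.6 and 412 CPM in the knockout livers and 325, 243 and 323 in the controls. Knockout 2 alone fell among the controls for Hadh (log2 fold change 0.30 ± 0.20, adjusted p = 0.604). Acaa2, the mitochondrial thiolase, had the highest level per length of the 35 members, at 717 ± 66.1 TPM in the controls and 758 ± 120.0 in the knockout livers (SD, n = 3 each), and a log2 fold change of 0.30 ± 0.24.

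Hadha and Hadhb are transcribed away from each other, with RefSeq start sites 273 bases apart on chr5, and the 300-base promoter windows share 228 bases. The stretch between their annotated exons is shown because this pair of subunits shares it (chr5:30155163-30155247, GRCm38.p6, plus strand, read towards Hadhb). The capitals mark GC boxes (GGGCGG), 90 and 25 bases before the Hadhb start.
Hadhb: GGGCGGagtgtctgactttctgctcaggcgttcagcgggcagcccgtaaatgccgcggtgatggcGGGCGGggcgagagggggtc
GC boxes on either strand were found in 21 of the members' 33 promoters, 63.6%, against 60.3% of promoters of tested genes and 35.7% of all promoters. The CCAAT box was found in 45.5% of the members' promoters and in 37.3% of those of tested genes.

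Electrons of the first step pass through the electron transfer flavoprotein. Its beta subunit gene, Etfb, had 194, 143 and 199 CPM in the knockout livers and 154, 119.7 and 155 in the controls. Knockout 1 and 3 lay above all controls and knockout 2 between them (log2 fold change 0.32 ± 0.18, adjusted p = 0.553). The alpha subunit gene, Etfa, had a log2 fold change of 0.15 ± 0.18, and its dehydrogenase Etfdh one of 0.0080 ± 0.24. Etfa was the steadiest member among the knockout livers, which differed at most 1.05-fold.

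Unsaturated chains need isomerases and reductases to enter the cycle, and all 5 of these members had estimates above 0 on TMM scaling, 3 on total counts or log2(TPM + 1) and 0 on hepatocyte marker counts. Relative to the move of all genes under those scalings, 5 of 5 were above 0, which largely restates the result on TMM scaling. Ech1, a dienoyl-CoA isomerase, had 353, 243 and 330.4 CPM in the knockout livers and 274, 195 and 277 in the controls. Knockout 2 was again the liver that fell among the controls (log2 fold change 0.31 ± 0.21, adjusted p = 0.615). The mitochondrial enzymes Eci1 and Decr1 had log2 fold changes of 0.34 ± 0.25 and 0.18 ± 0.23, and the peroxisomal Eci2 and Decr2 0.12 ± 0.42 and 0.30 ± 0.29. Eci2 was 3.03-fold higher in knockout 1 than in knockout 2.

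Peroxisomal genes included some of the widest ranges between mice. Ehhadh, the peroxisomal bifunctional enzyme and a classical PPAR-alpha target (chr16:21761287-21787807, minus strand, GRCm38), had 1783, 374 and 447 CPM in the knockout livers and 1231, 909 and 683 in the controls. Knockout 1 was above every control and the other 2 knockout livers were below every control. The log2 fold change was -0.12 ± 0.59 (adjusted p = 0.949), and without knockout 1 it was -1.19 (adjusted p = 0.292). Acaa1a, a peroxisomal thiolase gene (chr9:119339676-119350299, plus strand, GRCm38), had 197, 109.3 and 169 CPM in the knockout livers and 149.6, 83.0 and 115 in the controls. Knockout 2 lay among the controls and the other 2 knockout livers above them. The estimate of 0.45 ± 0.27 was the highest of the 35, with an adjusted p of 0.567. Acaa1b, on the same chromosome, had a log2 fold change of -0.017 ± 0.35. Of the 75-base windows of Acaa1a transcripts, 27.3% also occurred in Acaa1b, so reads of this pair may have been split between them. Acox2, the oxidase for branched chains, and Hsd17b4, the other bifunctional enzyme, had log2 fold changes of 0.076 ± 0.19 and 0.21 ± 0.21.

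The Ehhadh promoter is shown as that of the peroxisomal member with the widest range (chr16:21787835-21788084, GRCm38.p6, minus strand). The capitals mark GC boxes on either strand, 91 and 10 bases before the start.
Ehhadh: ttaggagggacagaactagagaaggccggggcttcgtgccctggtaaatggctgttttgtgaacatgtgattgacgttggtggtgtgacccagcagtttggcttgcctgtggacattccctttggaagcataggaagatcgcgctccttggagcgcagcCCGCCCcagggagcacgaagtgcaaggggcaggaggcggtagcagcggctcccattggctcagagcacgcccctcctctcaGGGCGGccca

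Acyl-CoA thioesterases, which release the fatty acid from CoA, had estimates below 0 for all 3 members, under every scaling. Acot2, the mitochondrial form (chr12:83987861-83993873, plus strand, GRCm38), had 25.5, 7.69 and 8.57 CPM in the knockout livers and 27.8, 40.1 and 20.0 in the controls. Knockout 2 and 3 lay below every control and knockout 1 among them. For Acot2 the log2 fold change was -1.07 ± 0.49 (unadjusted p = 0.0657, adjusted p = 0.494); without knockout 1 it was -1.84 (adjusted p = 0.273). Acot1, the cytosolic form (chr12:84009490-84018371, plus strand, GRCm38), had 43.4, 6.60 and 4.23 CPM in the knockout livers and 33.6, 31.5 and 13.8 in the controls. Knockout 1 was the highest of the 6 and the other 2 knockout livers were the lowest, a 10.3-fold range within the group. The log2 fold change was -0.54 ± 0.90, and without knockout 1 it was -2.27 (adjusted p = 0.273). Acot4, a peroxisomal form, had -0.21 ± 0.21, and 0.066 without control 1. Of Acot1's 75-base windows 19.7% also occurred in Acot2, so their counts are not fully separate.

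The promoters of Acot1 and Acot2 are shown because these neighbouring genes had the 2 lowest estimates and both had knockout 1 high with knockout 2 and 3 low (GRCm38.p6, plus strand, chr12:84009252-84009489 and chr12:83987611-83987860). The capitals mark the CCAAT box, 79 bases before the Acot1 start and, on the minus strand, 244 bases before the Acot2 start.
Acot1: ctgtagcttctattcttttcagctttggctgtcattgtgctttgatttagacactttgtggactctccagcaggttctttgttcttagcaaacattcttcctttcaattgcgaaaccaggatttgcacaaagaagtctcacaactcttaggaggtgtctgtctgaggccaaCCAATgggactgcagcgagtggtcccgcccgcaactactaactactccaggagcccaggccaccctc
Acot2: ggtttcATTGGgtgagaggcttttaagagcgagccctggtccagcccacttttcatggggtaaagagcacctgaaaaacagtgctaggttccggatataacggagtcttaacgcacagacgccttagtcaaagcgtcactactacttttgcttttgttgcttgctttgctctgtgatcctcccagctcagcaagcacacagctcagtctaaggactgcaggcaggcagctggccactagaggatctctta

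Ketone body formation was represented among the members by Bdh1, the mitochondrial enzyme that interconverts acetoacetate and beta-hydroxybutyrate (chr16:31422280-31458901, plus strand, GRCm38). Bdh1 had 371, 247 and 349.5 CPM in the knockout livers and 302, 262 and 311 in the controls. Knockout 1 and 3 were above the controls and knockout 2 below them. The log2 fold change was 0.15 ± 0.20 (adjusted p = 0.802).

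Secreted and membrane targets of PPAR-alpha did not move together. Fgf21, a hormone that the liver releases on fasting and stress (chr7:45613886-45615490, minus strand, GRCm38), had 21.4, 46.8 and 11.8 CPM in the knockout livers and 16.1, 47.3 and 27.4 in the controls. Its highest values were in knockout 2 and control 2, the 2 livers in which most other members were lowest in their group on the same scale. Its log2 fold change was -0.18 ± 0.57 (adjusted p = 0.919). Angptl4, a secreted inhibitor of lipoprotein lipase, had 135, 78.5 and 150.1 CPM in the knockout livers and 174, 119.0 and 148 in the controls (log2 fold change -0.28 ± 0.25, adjusted p = 0.700). Knockout 2 was below every control and the other 2 knockout livers lay among them. Vnn1, a membrane pantetheinase, had a log2 fold change of 0.23 ± 0.31.

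The Fgf21 promoter is shown as that of the member highest in knockout 2 and control 2 (chr7:45615491-45615740, GRCm38.p6, minus strand). The capitals mark a TATA box (TATAAA), 28 bases before the start.
Fgf21: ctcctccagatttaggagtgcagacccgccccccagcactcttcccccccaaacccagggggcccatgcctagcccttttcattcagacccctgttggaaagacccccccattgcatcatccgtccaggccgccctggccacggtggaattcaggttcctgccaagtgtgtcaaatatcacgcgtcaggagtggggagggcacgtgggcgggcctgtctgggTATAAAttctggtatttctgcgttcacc
Only Fgf21 and Acot4 among the 33 promoters held these letters on either strand, 6.06% against 7.68% of promoters of tested genes.

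**Figure D3:**
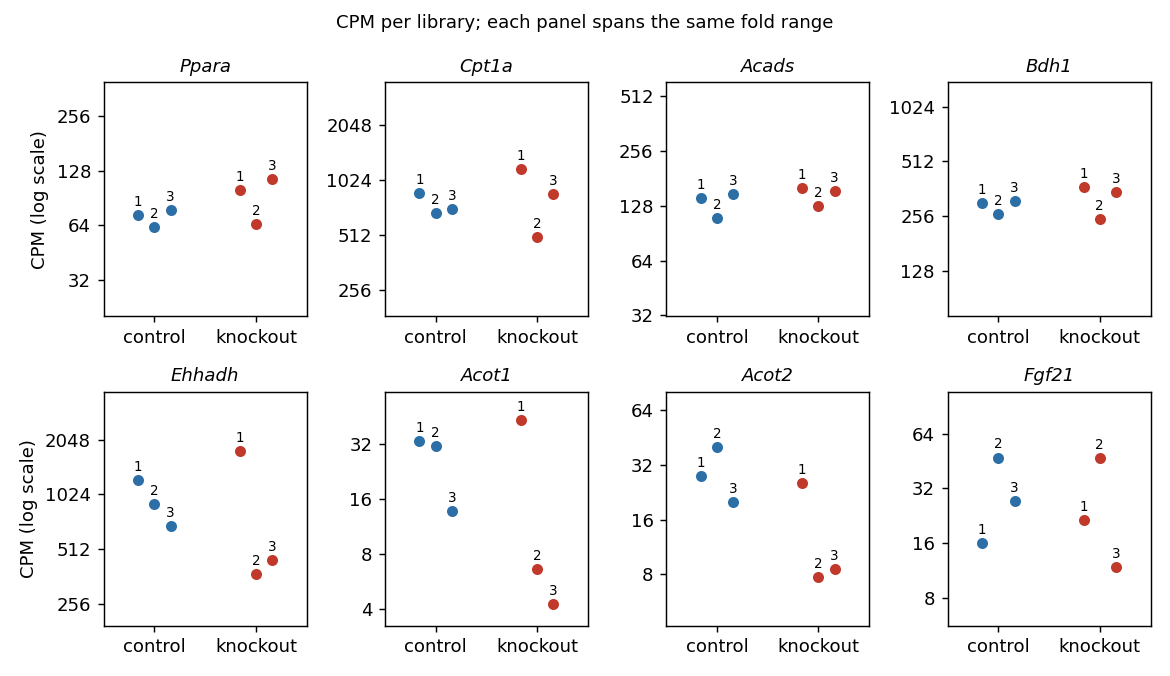
CPM of 8 members in each control (blue) and knockout (red) library, on a log axis that spans the same fold range in every panel; digits are replicate numbers. Ehhadh, Acot1 and Acot2 have knockout 1 far above knockout 2 and 3, whereas Acads and Bdh1 span a narrow range.

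Mitochondrial and peroxisomal steps were then compared as the mean log2 CPM of their genes in each library, beside Bdh1 for the ketogenic step. The 16 mitochondrial genes stood at 8.34, 7.73 and 8.11 in the knockout livers and 8.06, 7.64 and 8.00 in the controls, a difference of 0.16 with a pooled SD of 0.27. All 16 estimates were above 0 on TMM scaling (median 0.16), 5 on total counts, 4 on log2(TPM + 1) and 0 on hepatocyte marker counts. Relative to the move of all genes they were 16, 13 and 16, a reading that largely restates TMM scaling by construction. Without knockout 1, 9 of the 16 were above 0, and without control 2, 12. The 10 peroxisomal genes, which besides the core steps included Ech1, Eci2, Decr2, Crat and Acot4, stood at 8.31, 7.31 and 7.61 in the knockout livers and 8.06, 7.41 and 7.66 in the controls. Their difference was 0.034 with a pooled SD of 0.43, and 6 of 10 estimates were above 0 (median 0.096), or 4 on total counts, 3 on log2(TPM + 1) and 1 on hepatocyte marker counts. Relative to the move of all genes 6, 6 and 7 were, with the same limit. Without knockout 1 the peroxisomal median was -0.19. Bdh1, at 0.15, had an estimate close to the mitochondrial median. Acot2, the mitochondrial thioesterase with the lowest estimate, was not among the 16, whereas the peroxisomal thioesterase Acot4 was among the 10. Crat, described above with the carnitine shuttle, was also among the 10, with an estimate of -0.18. The placement of Crat was not varied, nor was that of Ech1 and Eci2, which had estimates of 0.31 and 0.12. With Acot2 added, 16 of 17 mitochondrial estimates were above 0 and the difference was 0.074 (pooled SD 0.27), and without Acot4 the peroxisomal difference was 0.058 (pooled SD 0.45), a comparison added after seeing the data. Both differences between genotypes were smaller than the spread between livers, and differences between the groups of steps were not tested.

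**Figure D4:**
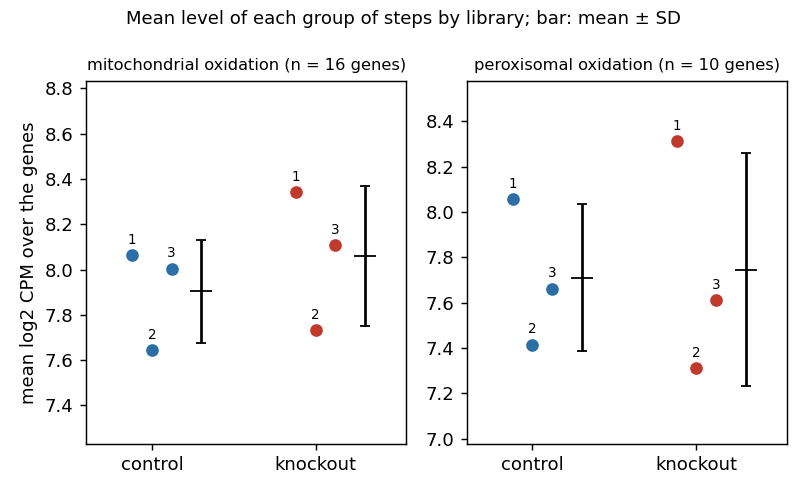
Mean log2 CPM over the genes of each group of steps (vertical axis) in each control (blue) and knockout (red) library, with the mean and SD of the 3 libraries beside the points; digits are replicate numbers. Knockout 1 is highest and either knockout 2 or control 2 lowest in each panel, and the genotypes overlap in both.

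As a share of all transcripts, the 35 members made up 1.02%, 0.602% and 0.773% of TPM in the knockout livers and 0.919%, 0.857% and 0.775% in the controls. The means were 0.800 ± 0.212% and 0.851 ± 0.0724% (SD, n = 3 each), so on this scale the knockout mean was the lower. Scaling also set the sign of the members' median. With libraries scaled to total counts, all genes moved by -0.22 at the median and the members' median was -0.053. On log2(TPM + 1) the figures were -0.20 and -0.097, and on hepatocyte marker counts -0.48 and -0.30. Relative to those shifts the members' medians were 0.16, 0.11 and 0.18. Subtracting the shift takes out what each scaling does to all genes alike. These values therefore lie near the 0.15 of TMM scaling largely by construction and are no separate support for it. The part of hepatocyte content in the members' levels was not tested.

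**Figure D5:**
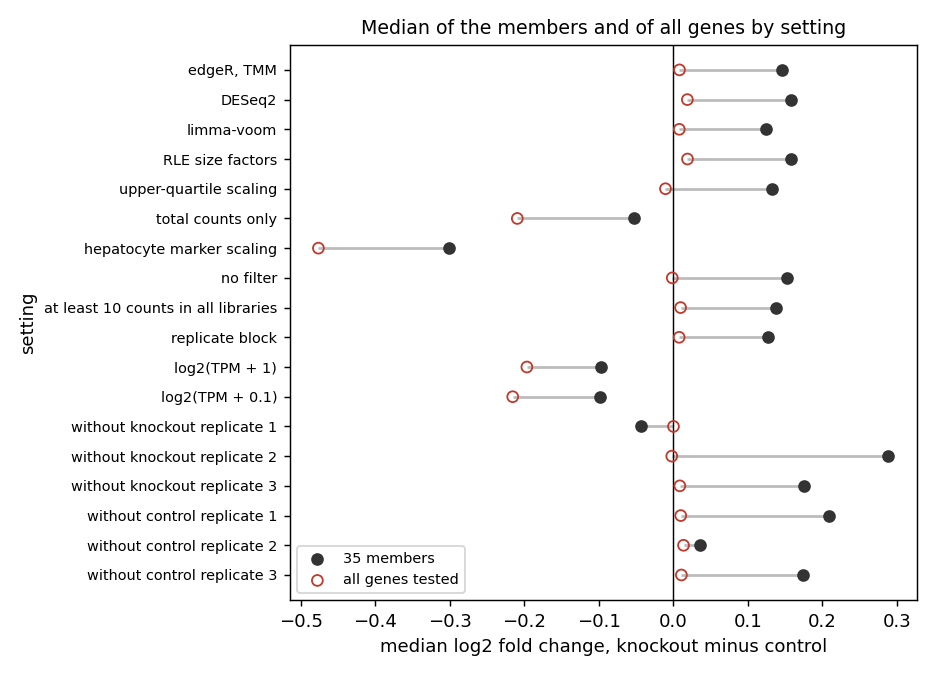
Median log2 fold change (knockout minus control) of the 35 members (filled) and of all genes tested (open) under the reported fit, at the top, and each alternative. The members' median lies to the right of the all-gene median in every row except without knockout replicate 1. Scaling by total counts, hepatocyte markers or TPM puts both medians below 0.

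Of 86 further genes of the pathway, 85 were tested (Acot5 was not) and 0 passed the adjusted threshold. At an unadjusted p under 0.05, 3 were higher (Acot8, Acsm1 and Ppargc1b; 3.75% of all genes) and 4 lower (Slc16a1, Pdk4, Pparg and Ppargc1a; 7.00% of all genes), and 61 had estimates above 0 on TMM scaling (median 0.14). The groups did not overlap for 3 higher genes (Acsl5, Ppargc1b and Aldh9a1) and 4 lower ones (the same Slc16a1, Pdk4, Pparg and Ppargc1a), against 7.25% and 9.14% of all genes. None of the counts by unadjusted p or by overlap lay above the share of all genes. For the 61 of 85 with estimates above 0, the share of all genes tested was 51.2%, and that count was not tested. The values below are given as descriptions. Acsl5, Aldh9a1, Ppargc1a and Cyp4a14 are named here after their values were seen.

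Among ketone body genes, Slc16a1, a monocarboxylate transporter, had 72.7, 61.6 and 62.9 CPM in the knockout livers and 88.6, 96.3 and 89.0 in the controls (log2 fold change -0.47 ± 0.13, adjusted p = 0.367). All knockout livers were below all controls. Bdh2 had a log2 fold change of 0.70 ± 0.47.

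Among peroxisomal genes outside the members, Acot8, a thioesterase, had a log2 fold change of 0.51 ± 0.21 (adjusted p = 0.447). In microsomal omega oxidation, Cyp4a10 and Cyp4a32 had 0.61 ± 0.77 and 0.33 ± 0.45. Cyp4a14, a classical PPAR-alpha target, had 4354, 590 and 471 CPM in the knockout livers and 2905, 1061 and 1249.6 in the controls. That order, with knockout 1 above and the other 2 knockout livers below the controls, was the one seen for Ehhadh and Acot1.

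Pdk4, the kinase that shuts off pyruvate dehydrogenase when fat is burned, had 34.5, 24.3 and 15.6 CPM in the knockout livers and 59.6, 47.3 and 45.9 in the controls. All knockout livers were below all controls (log2 fold change -1.04 ± 0.26, adjusted p = 0.367). Acsm1, a medium-chain acyl-CoA synthetase, had a log2 fold change of 0.71 ± 0.25 (adjusted p = 0.395). Of the receptors and coactivators, Pparg, the gene for PPAR-gamma, had 17.7, 16.5 and 18.5 CPM in the knockout livers and 22.1, 24.6 and 29.8 in the controls (-0.54 ± 0.15, adjusted p = 0.370). Ppargc1b and Ppargc1a, both coactivators of oxidative metabolism, had log2 fold changes of 0.74 ± 0.26 and -0.79 ± 0.28 (adjusted p = 0.389 and 0.392), opposite in sign and neither past the adjusted threshold.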

How the data were processed

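PolyA RNA of 3 knockout and 3 control livers was sequenced in strand-specific libraries, per the labels. The deposited table holds estimated counts, not normalized, and TPM values, scaled by the authors to gene length and a fixed total. The submitters' processing notes name GRCm38 and, with no roles, RSEM 1.3.3, HISAT2 2.2.1, DESeq2 1.38.3 and fastp 0.23.2. For the annotation release and the strand setting of the counting, nothing is stated in the sources used here. An exon of another gene on the opposite strand overlaps 10 members (Acsl1, Crat, Acadvl, Hadha, Etfdh, Eci2, Acaa1a, Acaa1b, Bdh1 and Acot4), and one on the same strand overlaps Etfb and Acot4, so their counts may mix with those of the neighbour.

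Counts (6.93% not whole) were rounded and tested in edgeR 4.0.16 (TMM, filterByExpr, robust quasi-likelihood, no covariates), adjusted at 0.05 over 13197 genes. SEs were computed as the log2 fold change over the square root of F. CPM uses TMM-scaled totals, log2 CPM a prior count of 2. Positions are from GENCODE M21 (GRCm38), in which all 35 members were found, and promoters from RefSeq GRCm38.p6. Levels between genes use TPM.

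Alternatives were DESeq2 1.42.0, limma-voom and limma 3.58.1 on log2(TPM + 1) and log2(TPM + 0.1), other scalings and filters, a replicate block and each library left out. On simulated data for this comparison (13073 genes), edgeR recovered 67% of 2-fold and 98% of 4-fold changes, with 23 false calls among 188. There, 200 genes above a minimum level were changed, with noise drawn independently for each gene. Many changed genes ease the adjusted threshold, whereas no gene was called in the livers. The recovery rates are therefore a check of the code and not the power of this comparison. Software was Python 3.11.15, R 4.3.3 and matplotlib 3.10.9.

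The members and lists were chosen with earlier results of these data known. All members are named by role. Values per library are given for Ppara, Cpt1a, Bdh1, Ehhadh, Fgf21, for the member with the smallest p in each role and for any member with an unadjusted p under 0.05 or groups that do not overlap (none); Acot1 was added after its values were seen. Of each further list the 2 genes with the smallest p are named, except where a gene is not reported here; a planned comparison of a ketone body gene set is not reported either. The labels call the libraries biological replicates; within groups, pairs differed far beyond sampling noise (chi-square per degree of freedom of 27.8 to 91.8).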

Additional observations from a re-analysis of the deposited data

How the results depend on the processing

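No member was called under any alternative run: DESeq2, limma-voom, other scalings and filters, TPM, the replicate block and each library left out. Over all genes, 0 were called except with DESeq2 (119), hepatocyte marker scaling (2), the replicate block (5), and without control 2 or control 3 (2 each; 0 to 2 over the 6 fits that leave out a library). Sting1 passed with DESeq2 only (log2 fold change -1.28; -1.42 to -1.06 with a library left out). DESeq2 also made 46 false calls among 224 on simulated data. With 3 livers a group, a 2-fold difference could have been missed in Acsl1, Crat, Eci2, Ehhadh, Acaa1a, Acot1, Acot2 and Fgf21. Their intervals in the reported fit reach beyond 2-fold, and the widest allow larger differences. For the other 27 members the interval in that fit lay within 2-fold either way, and smaller differences could have been missed.

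Hepatocyte marker scaling moved the median log2 fold change to -0.30 for the members, -0.30 for mitochondrial and -0.34 for peroxisomal genes, where the scaling itself shifts all genes by -0.48. With a library left out these medians ran from -0.043 to 0.29 (members), 0.033 to 0.28 (mitochondrial) and -0.19 to 0.30 (peroxisomal).

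The replicate block called 0 members, with 5 at an unadjusted p under 0.05 (Ppara, Etfb, Eci1, Decr2 and Acaa1a, all higher). Over all genes, the block had 1792 at an unadjusted p under 0.05, against 1419 in the reported fit. Livers with the same number had correlations of deviations of 0.11, -0.0068 and 0.13, and not every liver correlated best with its own number. Correlations from so few livers cannot decide whether those with the same number were paired, and no conclusion on pairing is drawn.

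Of the 35 members, 19 kept their sign throughout, read relative to the shift of all genes where that exceeded 0.1, and 16 changed it somewhere. The cause was not tested. Removing that shift brings the rescaled fits close to the TMM fit, so those fits are not independent checks of the sign. Slc25a20 was at -0.027 in limma-voom, -0.021 with the replicate block, -0.058 on log2(TPM + 1) and -0.042 on log2(TPM + 0.1). Etfdh was at -0.013, -0.0077, -0.046 and -0.028 in the same 4 fits and -0.0018 with upper-quartile scaling. Acadl was at -0.0056 on log2(TPM + 1), and Acaa1b at 0.022 with hepatocyte marker scaling. With a library left out, the lowest and highest values were -0.33 and 0.44 for Acsl1, -0.14 and 0.44 for Cpt1a, -0.28 and 0.27 for Slc25a20, -0.85 and 0.12 for Crat, -0.097 and 0.18 for Acadl, -0.084 and 0.24 for Acadm, -0.085 and 0.26 for Hadhb, -0.25 and 0.14 for Etfdh, -0.046 and 0.36 for Decr1, -0.40 and 0.44 for Eci2, -0.042 and 0.23 for Acox2, -1.19 and 0.25 for Ehhadh, -0.48 and 0.27 for Acaa1b, -0.34 and 0.066 for Acot4, -0.094 and 0.54 for Vnn1, and -0.86 and 0.30 for Fgf21.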
